A study of Mus musculus with 24 samples.

Results

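The 6 genes described here make, import or use creatine, and were followed through 24 RNA sequencing libraries of mouse gastrocnemius, the large muscle of the calf. They were taken by symbol from the 36172 gene models of the deposited tables: Gamt and Gatm of creatine synthesis, the transporter gene Slc6a8, and the creatine kinase genes Ckm, Ckmt2 and Ckb. All 6 passed the filter on low counts, among 13048 genes tested. The mice were C57BL/6, every one with floxed Notch2 alleles (Notch2f/f). Notch2-mKO mice also carried 1 copy of Cre in the Mlc1f locus (Mlc1fCre/+), which acts in skeletal muscle fibres and leaves the Notch2 gene of other muscle cells intact, and WT mice carried the floxed alleles without Cre. Each genotype was studied with diabetes, 14 days after streptozotocin (STZ, 150 mg per kg), a toxin of the insulin-producing cells, with unloading by 7 days of hindlimb suspension, and as a control, with 4 libraries in each of the 6 groups. The study's title names wasting from unloading and from diabetes in the absence of Notch2 as its question.

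Creatine is made in a pair of steps. Gatm encodes the enzyme that joins arginine and glycine to guanidinoacetate, a step placed mainly in kidney, and Gamt encodes guanidinoacetate methyltransferase, which adds the methyl group and is best known from liver. Muscle takes most of its creatine from blood through the transporter encoded by Slc6a8. Creatine kinases then move phosphate between ATP and creatine: the product of Ckm works in the cytosol and at the M-band of the contractile apparatus, that of Ckmt2 sits between the mitochondrial membranes, and that of Ckb is the cytosolic form typical of brain and of cells other than muscle fibres.

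Per library, 33112459 to 56369917 estimated counts fell on genes. Notch2 itself was at 1.14 to 2.55 CPM (the usual unit of counts over the size of the library, with sizes scaled between libraries) in the 12 Notch2-mKO libraries and at 1.34 to 3.18 CPM in the 12 WT libraries, and since counts cover the whole gene and all cell types they do not check the genotype labels. A difference between the mean log2 level of genes under 42% GC and of genes over 56% GC was higher in treated than in control libraries of WT mice without overlap, and overlapped in Notch2-mKO mice: it ran from -0.02 to 0.32 with diabetes, -0.21 to 0.30 with unloading and -0.61 to 0.05 in controls of Notch2-mKO mice, and from 0.21 to 0.57, 0.37 to 0.54 and -0.98 to -0.19 in the same groups of WT mice. Values with that trend and the trend with gene length removed are therefore given beside the calls of Gamt and of some other genes. None are given beside the calls of Slc6a8, Ckmt2 and Ndufs7. In bulk tissue, fewer cells of a type and less RNA per cell cannot be told apart.

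The promoters of 4 of these genes are shown because Gamt, Ckmt2 and Ckb had lower mean levels in treated muscle than in controls. Ckm, the most abundant, differed least among the kinases. For Ckb, treated libraries overlapped the controls in part, and its call in unloaded WT muscle was lost with the GC and length trend removed. Slc6a8, also lower by mean in treated muscle, had no matched promoter. Each line gives the 250 bases before an annotated start of the gene from 5′ to 3′ on the gene's strand (RefSeq, build GRCm38.p6). For Gamt and Ckmt2 that start lies inside the gene span given below, so the window overlaps the end of that span. Capitals mark matches on either strand to the TATA-like letters TATANA, to the box named CCAAT, or to the GC box, which reads GGGCGG.
Gamt, chr10:80261013-80261262, minus strand: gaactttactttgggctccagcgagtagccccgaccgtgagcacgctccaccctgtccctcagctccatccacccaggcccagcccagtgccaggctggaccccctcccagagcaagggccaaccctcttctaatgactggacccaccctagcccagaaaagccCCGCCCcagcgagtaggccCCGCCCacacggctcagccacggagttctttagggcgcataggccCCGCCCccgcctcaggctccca
Ckmt2, chr13:91876886-91877135, minus strand: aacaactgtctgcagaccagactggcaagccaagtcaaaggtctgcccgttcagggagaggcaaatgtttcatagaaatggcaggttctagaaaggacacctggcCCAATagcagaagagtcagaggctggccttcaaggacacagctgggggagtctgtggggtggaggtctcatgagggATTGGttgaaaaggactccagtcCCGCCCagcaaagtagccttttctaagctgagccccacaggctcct
Ckb, chr12:111672339-111672588, minus strand: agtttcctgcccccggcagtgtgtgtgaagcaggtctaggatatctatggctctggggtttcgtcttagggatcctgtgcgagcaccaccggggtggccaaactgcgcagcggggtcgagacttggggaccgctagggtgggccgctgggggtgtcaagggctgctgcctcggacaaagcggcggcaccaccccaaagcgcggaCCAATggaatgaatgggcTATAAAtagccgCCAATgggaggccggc
Ckm, chr7:19410844-19411093, plus strand: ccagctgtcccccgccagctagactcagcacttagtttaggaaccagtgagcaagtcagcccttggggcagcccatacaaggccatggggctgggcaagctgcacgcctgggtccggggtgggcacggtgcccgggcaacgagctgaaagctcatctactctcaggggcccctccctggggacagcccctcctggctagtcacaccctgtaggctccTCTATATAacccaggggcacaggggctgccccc
Gamt had 3 GC boxes, all on the side of the window nearer the start, and neither of the other elements. Ckmt2 had 2 CCAAT boxes and 1 GC box, and Ckb had 2 CCAAT boxes with 1 TATA-like element between them. Ckm had 2 overlapping TATA-like matches. Among 32851 promoters of the same length, 32.7% held a GC box, 33.8% a CCAAT box and 22.6% a TATA-like element. The E-box (CANNTG), bound by muscle regulatory factors among others, was found at 4 places in the Ckmt2 window, at 1 in that of Ckm and at none in those of Gamt and Ckb, against 66.2% of all promoters with at least 1. The letters AAGGTCA, which oestrogen-related receptors bind, were in none of the 4 windows and in 4.08% of all promoters. GC made up 66.8% of the Gamt window, 54.0% of that of Ckmt2, 62.8% of that of Ckb and 64.8% of that of Ckm, with a median of 52.4% over all promoters. Gatm also had a matched promoter, with 2 CCAAT boxes and 59.2% GC.

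Gamt (gene ID 14431; chromosome 10, 80258151 to 80261025, minus strand) was the member with the widest relative spread. Per library it had 5.02, 3.69, 2.25 and 5.65 CPM in diabetic Notch2-mKO muscle, 12.5, 8.97, 11.1 and 3.93 CPM in unloaded Notch2-mKO muscle, and 13.9, 13.3, 17.3 and 22.6 CPM in Notch2-mKO controls. In WT mice it had 4.48, 2.44, 0.939 and 4.90 CPM with diabetes, 1.43, 3.26, 4.43 and 7.19 CPM with unloading, and 19.4, 24.3, 22.4 and 18.7 CPM in controls. In both genotypes each diabetic library and each unloaded library lay below each control library of the same genotype. The lowest of these values rested on 49 counts and the highest on 1022. By group mean the order from low to high was WT diabetes (3.19 ± 1.85 CPM, SD, n = 4), WT unloading (4.08 ± 2.42 CPM), Notch2-mKO diabetes (4.15 ± 1.51 CPM), Notch2-mKO unloading (9.13 ± 3.76 CPM), Notch2-mKO control (16.8 ± 4.25 CPM) and WT control (21.2 ± 2.59 CPM). Libraries of neighbours in that order overlapped, except those of unloaded Notch2-mKO muscle and the Notch2-mKO controls.

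**Figure D1:**
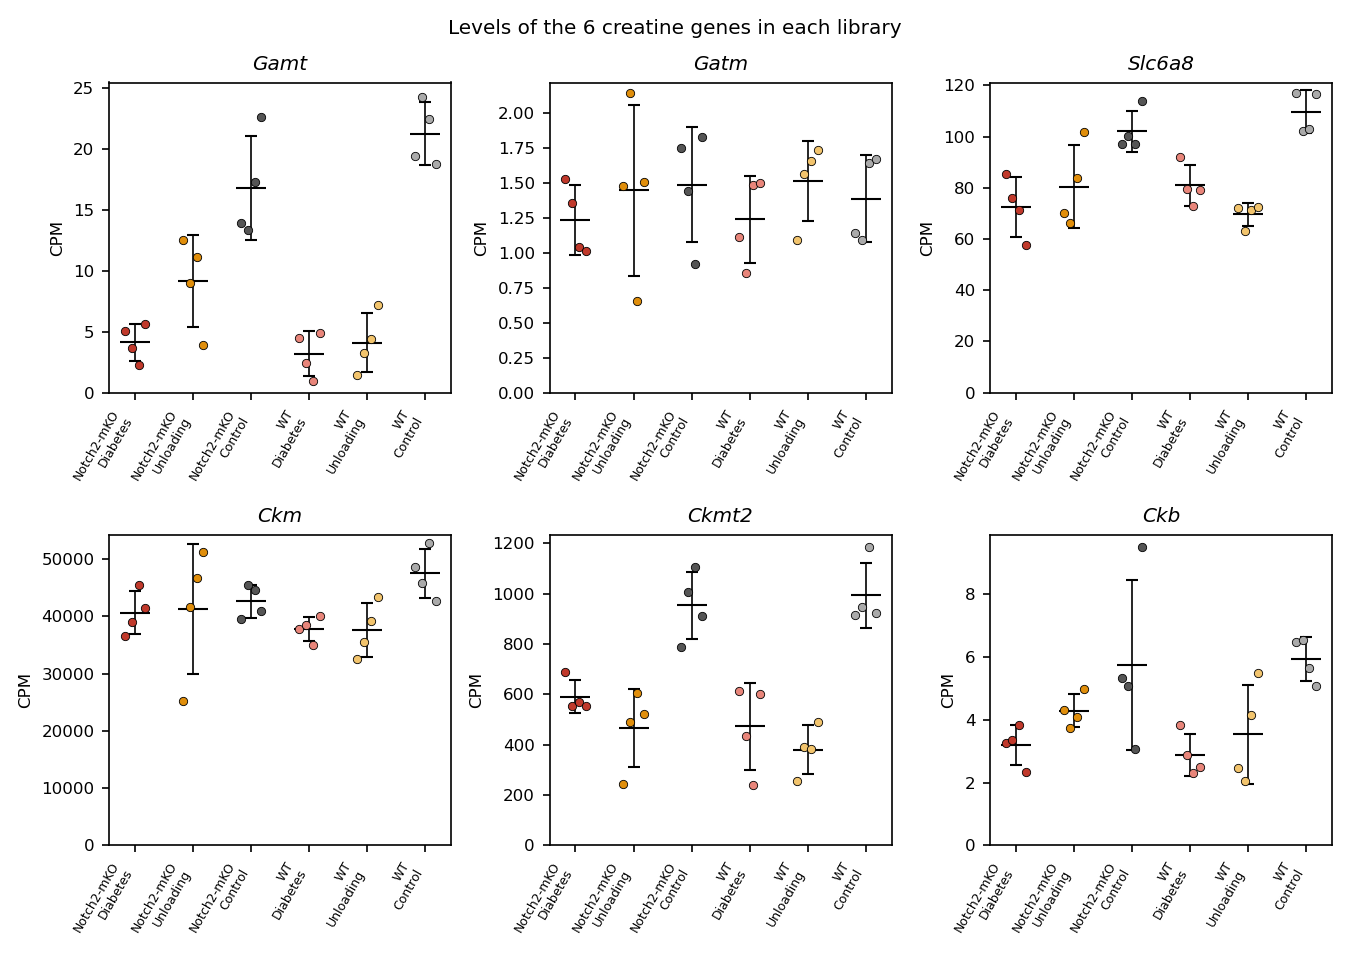
Level of each of the 6 creatine genes in CPM (linear axis from 0) in every library of the 6 groups; points are libraries, horizontal bars are means and error bars are SD over 4 libraries. Gamt and Ckmt2 of treated muscle lie below the controls of the same genotype in each group, while Gatm overlaps throughout.

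Diabetes in Notch2-mKO mice gave a test of Gamt that shares no library with the comparison through which the gene was chosen. Gamt fell to 4.15 ± 1.51 CPM in diabetic Notch2-mKO muscle, against 16.8 ± 4.25 CPM in Notch2-mKO controls, 4.04-fold lower (log2 fold change -2.01, SE 0.42, adjusted p = 0.00923, edgeR quasi-likelihood test). Of all genes tested in that comparison, 2.54% were called lower and 3.05% higher at an adjusted p under 0.05. The call held in each of 8 fits that left out 1 library (log2 fold change -2.19 to -1.80, adjusted p 0.00779 to 0.0408) and with the GC and length trend removed (-1.87, adjusted p = 0.0115). The number of genes called moved far more than Gamt did: 730 with all libraries, it was 346, 257, 310 and 178 without Notch2-mKO-Diabetes replicates 1 to 4, and 275, 320 and 153 without Notch2-mKO-Control replicates 2 to 4. It rose to 995 without Notch2-mKO-Control replicate 1. The split of the 730 into 398 higher and 332 lower also depended on scaling, with 237 and 345 after removal of the GC and length trend and 990 and 273 on the authors' log2 values. In this comparison 4 of 6 fibroblast and tendon markers were called lower as well, and their summed level was 298 to 329 CPM in diabetic Notch2-mKO muscle and 368 to 549 CPM in Notch2-mKO controls. The 5 muscle fibre markers summed to 147068 to 165414 CPM with diabetes and 175410 to 201405 CPM in those controls, with 1 called lower. That marker, Mb, was called in 1 of 8 fits with 1 library left out and was lost with the replicate numbers as a block. The part of the fibroblast, tendon and muscle fibre markers in the result for Gamt was not tested.

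Diabetes in WT mice is the comparison in which Gamt stood out in an earlier look at these data, so its values there are a description. Gamt was at 3.19 ± 1.85 CPM in diabetic WT muscle and 21.2 ± 2.59 CPM in WT controls (log2 fold change -2.73, SE 0.43). Without any 1 library that value lay between -3.03 and -2.43. The other members had log2 fold changes of -1.07 (Ckmt2, SE 0.25), -1.05 (Ckb, SE 0.28), -0.44 (Slc6a8, SE 0.13), -0.33 (Ckm, SE 0.15) and -0.15 (Gatm, SE 0.30) in the same comparison.

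Gamt also fell in unloaded WT muscle, to 4.08 ± 2.42 CPM against 21.2 ± 2.59 CPM in WT controls, 5.24-fold lower (log2 fold change -2.39, SE 0.42, adjusted p = 0.000125). These are the control libraries of the choosing comparison, so the result is not independent of it. In unloaded WT muscle 16.3% of all genes were called lower and 18.4% higher (2395 higher and 2127 lower, against 1387 and 2081 with the GC and length trend removed and 2809 and 641 on the authors' log2 values). With the trend removed the log2 fold change of Gamt was -2.09 (adjusted p = 0.000557). The summed fibroblast and tendon markers were at 268 to 359 CPM in unloaded WT muscle and 421 to 574 CPM in WT controls, with 4 of 6 called lower and 1 higher, and the summed endothelial markers at 172 to 209 CPM and 250 to 310 CPM, with 3 of 6 called lower. With the trend removed the higher marker, Dcn (0.0087, adjusted p = 0.973, edgeR), and the endothelial marker Tie1 (-0.34, adjusted p = 0.115) were not called. The other calls of these lists held. The 5 muscle fibre markers summed to 122519 to 161734 CPM in unloaded WT muscle and 185730 to 227027 CPM in WT controls, with 2 called lower, and the macrophage and leukocyte markers to 32.2 to 41.9 CPM and 44.5 to 54.0 CPM, with 3 of 6 called lower. Their part in the fall of Gamt was not tested.

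In unloaded Notch2-mKO muscle Gamt was at 9.13 ± 3.76 CPM, against 16.8 ± 4.25 CPM in Notch2-mKO controls, and did not pass the test (log2 fold change -0.88, 95% interval -1.70 to -0.06, adjusted p = 0.171), although the libraries did not overlap. Among all genes 3.2% were called lower and 4.11% higher (536 higher and 418 lower, against 435 and 547 with upper quartile scaling). The total of 954 dropped to 411 without Notch2-mKO-Control replicate 2, to 504 without replicate 3 and to 439 without replicate 4 of that group, and to 610 and 570 without replicates 2 and 4 of Notch2-mKO-Unloading, whereas Gamt was called in 0 of the 8 fits (adjusted p 0.145 to 0.382). The highest total among these 8 fits was 1127. Replicate 4 of the unloaded Notch2-mKO libraries, at 3.93 CPM, stood below the other 3, at 8.97 to 12.5 CPM.

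**Figure D2:**
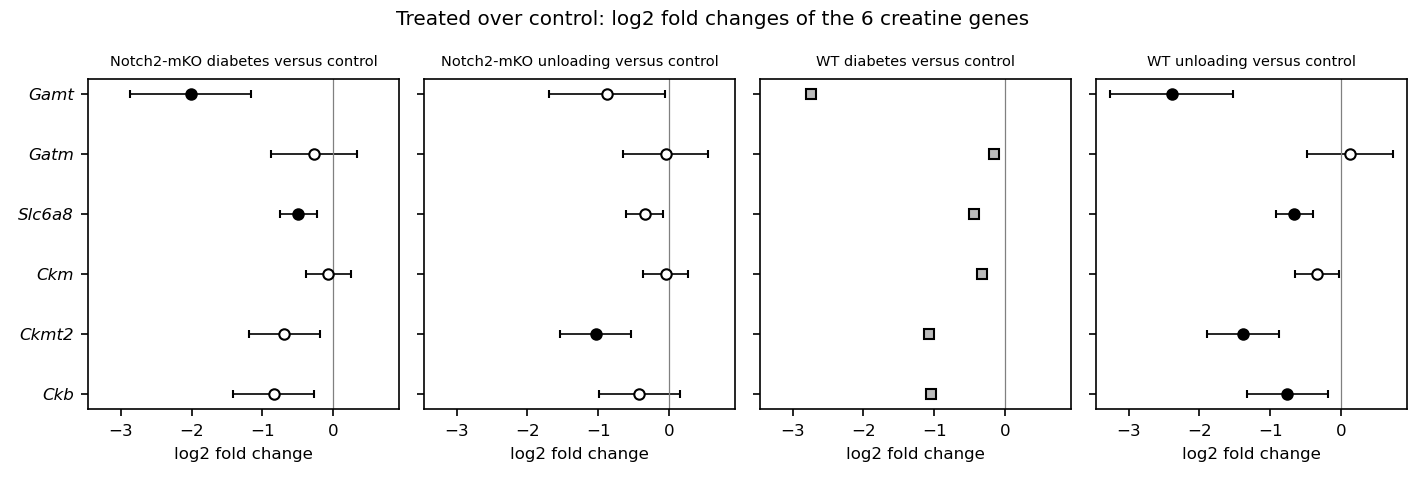
Log2 fold change of treated over control for the 6 genes in 4 comparisons; filled circles passed an adjusted p of 0.05 over all genes (edgeR), open circles did not, and bars are 95% intervals. Grey squares are the WT diabetes comparison, which chose Gamt and is drawn with no interval or test. Gamt lies farthest left in 3 of the panels and Ckmt2 in that of unloaded Notch2-mKO muscle.

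The genotypes were then set against each other. With unloading, Gamt was at 12.5, 8.97, 11.1 and 3.93 CPM in Notch2-mKO muscle and 1.43, 3.26, 4.43 and 7.19 CPM in WT muscle, so 3 of the 4 Notch2-mKO libraries exceeded every WT one. The log2 fold change of 1.17 (SE 0.41) had an unadjusted p of 0.00885 and an adjusted p of 0.422 over all genes (edgeR), and did not pass. The difference between the genotypes' responses to unloading was 1.51 on the log2 scale (95% interval 0.34 to 2.68, unadjusted p = 0.0136, adjusted p = 0.231), 1.26 with the GC and length trend removed (adjusted p = 0.528), and 1.22 to 1.92 when 1 library was left out. It rests in part on the WT controls. In controls the difference was -0.34 (95% interval -1.15 to 0.47, adjusted p = 0.955) and with diabetes 0.38 (-0.48 to 1.25, adjusted p = 0.918). These comparisons share the WT controls and the diabetic WT libraries with the one that chose the gene. The difference between responses to diabetes, 0.72 (SE 0.57), holds that comparison and is given with no test. Within Notch2-mKO mice, Gamt was 2.20-fold lower with diabetes than with unloading (log2 fold change -1.13, adjusted p = 0.15), where 1.12% of genes were called lower. That comparison had 400 calls, and 264, 195, 260 and 241 without Notch2-mKO-Diabetes replicates 1 to 4.

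Across all 6 genes, edgeR called 0 members between the genotypes in controls, with unloading or with diabetes, and 0 for either difference in response (for diabetes, of the 5 members other than Gamt), as for the background: 0% of the 13048 genes in each of the 5 comparisons. At an unadjusted p under 0.05 there was 1 member with unloading and 1 for the unloading response, Gamt in both cases, and 0 in the other 3. DESeq2 also called 0 members in these 5 comparisons. Over all genes, 695, 1345 and 692 genes had an unadjusted p under 0.05 in controls, unloading and diabetes, and 1875 and 1142 for the unloading and diabetes responses, and DESeq2 called 3, 5, 0, 128 and 1 in the same order. Leaving out WT-Control replicate 4 alone took the edgeR counts for the responses to 427 and 62, and leaving out WT-Unloading replicate 4 took the first of these to 12. Without WT-Control replicate 4 edgeR also called 2 genes between the genotypes in controls.

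Gatm (chromosome 2, 122594473 to 122611277, minus strand) was the least abundant member, with 29 to 83.9 counts per library. Its level was 1.23 ± 0.249 CPM in diabetic, 1.44 ± 0.609 CPM in unloaded and 1.48 ± 0.41 CPM in control Notch2-mKO muscle, and 1.24 ± 0.312, 1.51 ± 0.288 and 1.39 ± 0.312 CPM in the same groups of WT mice. The libraries of all groups overlapped. The 95% interval of its log2 fold change was -0.87 to 0.34 with diabetes and -0.65 to 0.56 with unloading in Notch2-mKO muscle, and -0.48 to 0.74 with unloading in WT muscle, so changes of the size seen for Gamt lay outside these intervals.

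Slc6a8 (X chromosome, 73673133 to 73682502, plus strand), the route by which muscle imports creatine, had 85.5, 76.2, 71.2 and 57.5 CPM in diabetic Notch2-mKO muscle and 97.3, 100.1, 97.3 and 113.9 CPM in Notch2-mKO controls. The groups did not overlap and the gene fell (log2 fold change -0.49, SE 0.13, adjusted p = 0.0253). This call was lost in 5 of 8 fits with 1 library left out (without Notch2-mKO-Control replicate 2 or 4 or Notch2-mKO-Diabetes replicate 2, 3 or 4; adjusted p up to 0.107). In unloaded WT muscle it had 71.9, 62.9, 71.4 and 72.3 CPM, against 117, 102, 103 and 117 CPM in WT controls, and fell by 0.66 on the log2 scale (SE 0.13, adjusted p = 0.000309), held in all 8 such fits. In unloaded Notch2-mKO muscle it had 70.0, 66.3, 83.7 and 102 CPM, which overlapped the controls (-0.34, adjusted p = 0.0872), and without Notch2-mKO-Unloading replicate 4 it passed (-0.48, adjusted p = 0.0284). Diabetic WT muscle had 92.1, 79.4, 73.1 and 79.3 CPM.

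Among the kinases, Ckm (chromosome 7, 19411094 to 19421583, plus strand) took 3.23 to 4.71% of all counts of a library. It averaged 40685 ± 3805 CPM in diabetic, 41242 ± 11379 CPM in unloaded and 42625 ± 2837 CPM in control Notch2-mKO muscle, and 37846 ± 2124, 37685 ± 4702 and 47576 ± 4282 CPM in the same groups of WT mice. No test passed: the log2 fold change was -0.07 (adjusted p = 0.843) and -0.05 (adjusted p = 0.886) with diabetes and unloading in Notch2-mKO muscle and -0.34 (adjusted p = 0.0912) with unloading in WT muscle. The 95% intervals were -0.38 to 0.25, -0.36 to 0.27 and -0.65 to -0.02.

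Ckmt2 (chromosome 13, 91853386 to 91876923, minus strand), the mitochondrial kinase of striated muscle, had 245, 491, 604 and 519 CPM in unloaded Notch2-mKO muscle and 789, 1004, 1105 and 913 CPM in Notch2-mKO controls. It fell 2.05-fold (log2 fold change -1.04, SE 0.24, adjusted p = 0.0139, held in 8 of 8 fits with 1 library left out, lost with limma on the authors' log2 values at adjusted p = 0.116). In unloaded WT muscle it had 255, 389, 383 and 491 CPM, against 915, 947, 1185 and 923 CPM in WT controls, and fell 2.62-fold (-1.39, SE 0.25, adjusted p = 0.000136). Diabetic Notch2-mKO muscle had 688, 552, 569 and 553 CPM, all below the Notch2-mKO controls, and diabetic WT muscle 613, 434, 241 and 600 CPM. The value for diabetic Notch2-mKO muscle, -0.69 (SE 0.24), did not pass (adjusted p = 0.0922), but passed with DESeq2 (0.0483), with limma on the authors' values (0.0298) and when only these groups were fitted (0.0017).

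Ckb (chromosome 12, 111669355 to 111672338, minus strand) was low throughout, with 95 to 380 counts. It had 2.46, 2.05, 4.17 and 5.48 CPM in unloaded WT muscle and 6.50, 6.55, 5.66 and 5.07 CPM in WT controls, groups that overlapped, and was called lower (-0.76, SE 0.28, adjusted p = 0.0382). That call was lost with the GC and length trend removed (-0.48, adjusted p = 0.19) and without WT-Control replicate 1, 2 or 3 or WT-Unloading replicate 1 or 2 (adjusted p 0.0555 to 0.142). Diabetic Notch2-mKO muscle had 3.26, 3.36, 3.84 and 2.34 CPM, against 5.34, 5.06, 3.05 and 9.52 CPM in Notch2-mKO controls (-0.84, adjusted p = 0.0735). The adjusted p was 0.0407 without Notch2-mKO-Control replicate 3, 0.0356 with DESeq2 and 0.369 with limma. Without Notch2-mKO-Control replicate 4 the log2 fold change was -0.48 (adjusted p = 0.356). Unloaded Notch2-mKO muscle had 4.32, 3.75, 4.09 and 4.999 CPM (log2 fold change -0.42, adjusted p = 0.364), which became -0.64 without Notch2-mKO-Control replicate 3 and -0.076 without replicate 4 of that group. Diabetic WT muscle had 3.82, 2.89, 2.31 and 2.51 CPM. The transcripts of Ckm and Ckb shared no run longer than 20 bases in the GENCODE M21 annotation. Ckmt1, the mitochondrial kinase of other tissues, had 0 counts in 22 of 24 libraries and at most 2 in the others. A count of 0 allows up to 3 counts, 0.0532 to 0.0906 CPM by library, so it was not detectable at this depth beyond that.

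Per kilobase of exon, the median level over the 24 libraries was 14152 CPM for Ckm, 393 for Ckmt2, 15.7 for Slc6a8, 4.45 for Gamt, 1.37 for Ckb and 0.494 for Gatm. Of the summed per-kilobase levels of the 3 measured kinases, Ckmt2 made up 2.39 to 3.56% in diabetic, 1.87 to 2.47% in unloaded and 3.76 to 4.63% in control Notch2-mKO muscle, and 1.33 to 3.07%, 1.51 to 2.17% and 3.55 to 4.21% in the same groups of WT mice. Ckb made up 0.00552 to 0.0224% over all libraries. The log2 ratio of Ckmt2 to Ckm counts had a median of -6.19 in diabetic, -6.52 in unloaded and -5.49 in control Notch2-mKO muscle, and of -6.27, -6.60 and -5.57 in WT mice. In each of these 4 treated groups every library was below every control library of its genotype, with the narrowest gap in diabetic Notch2-mKO muscle, where replicate 1 stood at -5.73 and the lowest control at -5.65. The ratio of Ckb to Ckm did not separate the treated libraries from the controls in Notch2-mKO mice: it ran from -14.11 to -13.45 with diabetes, from -13.48 to -12.51 with unloading and from -13.83 to -12.07 in controls. In WT mice it ran from -13.96 to -13.27 with diabetes, from -14.07 to -12.95 with unloading and from -13.19 to -12.77 in controls, so the diabetic libraries all lay below the controls and the unloaded ones overlapped them. No p is given for these ratios, whose members were chosen with results known.

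**Figure D3:**
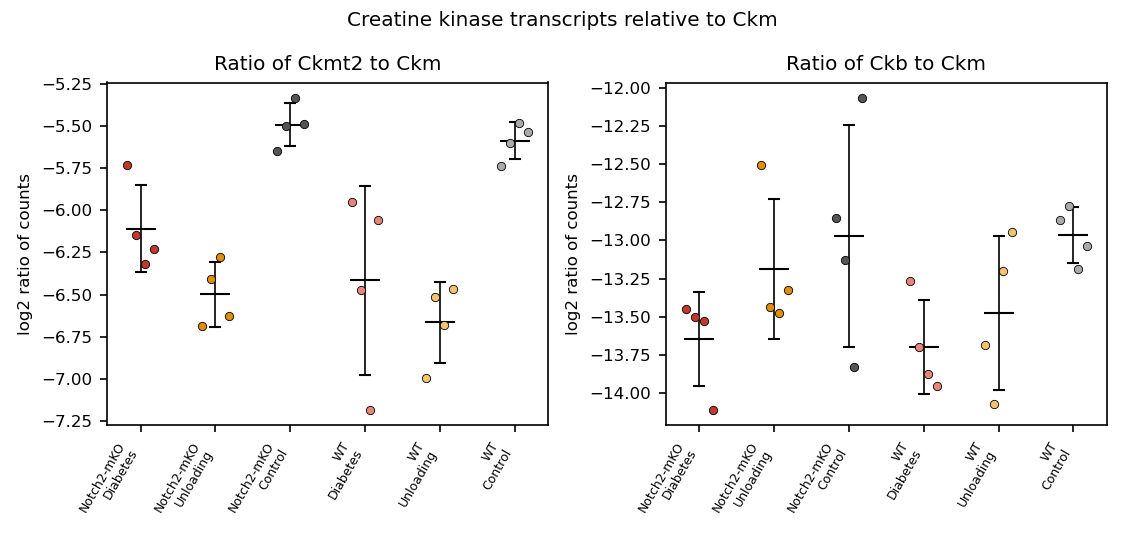
Log2 ratio of counts of Ckmt2 to Ckm and of Ckb to Ckm in each library (0.5 counts added to each); points are libraries, horizontal bars are means and error bars are SD over 4 libraries. The ratio of Ckmt2 to Ckm has no overlap between treated and control libraries of a genotype, with medians of -6.19 and -6.52 in diabetic and unloaded and -5.49 in control Notch2-mKO muscle.

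Genes with the pattern most like Gamt and each kinase gene over the 24 libraries were picked by the Pearson correlation of log2 CPM, a description, since all libraries share the treatments and the trend with base composition. For Gamt they were Dusp22 (r = 0.947), a phosphatase gene, Smad3 (0.936), which encodes a transducer of TGF-beta signals, Slc37a4 (0.935), the glucose-6-phosphate transporter gene, the potassium channel gene Kcng4 (0.931) and the collagen VI gene Col6a2 (0.931). With the GC and length trend removed Dusp22 and Col6a2 stayed among the first 5, joined by Prss23, Col1a2 and Col5a1. For Ckmt2 they were the respiratory chain genes Cyc1 (0.984) and Sdhb (0.974) and the citrate cycle gene Dlst (0.974). For Ckm they were the glycogen phosphorylase gene Pygm (0.967), the elongation factor gene Eef1a2 (0.935) and the glycolytic gene Gapdh (0.930). For Ckb they were Vtn (0.884), C1qtnf6 (0.881) and Cd248 (0.871), which encode secreted or surface proteins. With the GC and length trend removed Cyc1 alone stayed among the first 3 for Ckmt2, Pygm and Eef1a2 stayed for Ckm, and for Ckb the first 3 were instead Gnb4, Loxl2 and Fbn1.

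The gene models on either side of Gamt had smaller changes. Ndufs7, a complex I gene that ends at 80256794, was called lower in unloaded WT muscle (log2 fold change -0.63, adjusted p = 0.000564) and not in Notch2-mKO muscle with diabetes (-0.30, adjusted p = 0.17) or unloading (-0.36, adjusted p = 0.0841), although the libraries did not overlap in any of the 3. Dazap1, an RNA-binding protein gene that starts at 80261362, averaged 24.9 ± 1.48 CPM in diabetic and 21.3 ± 0.322 CPM in control Notch2-mKO muscle and was called in none of the comparisons tested. In these gene models neither overlaps Gamt.

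In each of the 4 treated groups the library with the least Gamt was the library with the most Fbxo32, the gene of the muscle ubiquitin ligase atrogin-1. This was noticed after the values were seen. The pair of values was 2.25 CPM of Gamt and 529 CPM of Fbxo32 in Notch2-mKO-Diabetes replicate 3, 3.93 and 1234 CPM in Notch2-mKO-Unloading replicate 4, 0.939 and 1216 CPM in WT-Diabetes replicate 3, and 1.43 and 1047 CPM in WT-Unloading replicate 1. The same held in WT controls (18.7 and 176 CPM, replicate 4) and not in Notch2-mKO controls, where the lowest Gamt was in replicate 2 and the highest Fbxo32 in replicate 4.

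**Figure D4:**
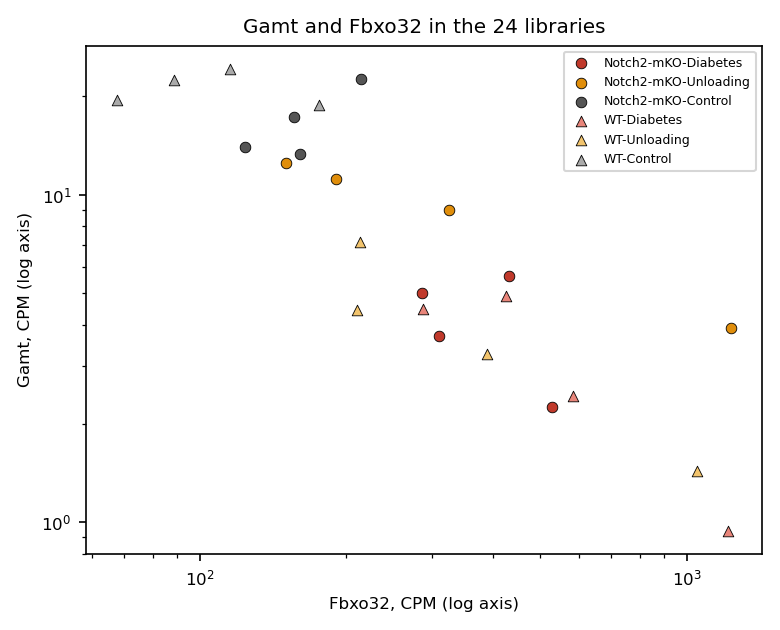
Gamt against Fbxo32 in CPM (both axes logarithmic), 1 point per library; circles are Notch2-mKO and triangles WT. Fbxo32 reaches 1234, 1216 and 1047 CPM in 3 treated libraries, in which Gamt is at 3.93, 0.939 and 1.43 CPM.

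The supply of creatine precursors and methyl groups was read from 26 genes, 21 of them tested. In diabetic Notch2-mKO muscle edgeR called 0 of them, as did DESeq2, and 0 had an unadjusted p under 0.05 (median log2 fold change -0.04, against -0.01 over all genes), and the smallest p-values belonged to Mtr (-0.34, adjusted p = 0.238), Ahcyl1 (0.22, adjusted p = 0.285), Slc7a2 (0.47, adjusted p = 0.299) and Adk (-0.26, adjusted p = 0.307). With unloading, 2 were higher and 3 lower in WT muscle (23.8% of those tested, against 34.7% of all genes; median 0.03, against -0.02). Mthfd1, of folate metabolism, fell by 0.53 (adjusted p = 0.000296), and Mat2a, which makes the methyl donor S-adenosylmethionine, fell by 0.92 (adjusted p = 0.0101), while Ahcyl2 rose by 0.50 (adjusted p = 0.021; not called with the GC and length trend removed, adjusted p = 0.143). With unloading, 4 were lower and none higher in Notch2-mKO muscle (19% of those tested, against 7.31% of all genes; median -0.04, against 0.02), among them Shmt1 (-0.73, adjusted p = 0.013), Mat2a (-1.15, adjusted p = 0.013) and Mthfd1 (-0.43, adjusted p = 0.0139).

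Of 23 genes that buffer or exchange adenine nucleotides, 20 were tested. EdgeR and DESeq2 called 0 in diabetic Notch2-mKO muscle, where 4 had an unadjusted p under 0.05 (median log2 fold change -0.15, against -0.01 over all genes), and the smallest p-values included those of Vdac2 (-0.30, adjusted p = 0.115), Nme2 (-0.20, adjusted p = 0.197) and Nt5c3 (-0.30, adjusted p = 0.203). Unloaded WT muscle had 2 of them higher and 6 lower (40% of those tested, against 34.7% of all genes; median -0.27, against -0.02): Slc25a5, an ADP/ATP carrier gene, fell by 0.76 (adjusted p = 0.00073), and the AMP deaminase genes Ampd2 and Ampd1 fell by 0.99 (adjusted p = 0.00129) and 0.83 (adjusted p = 0.00204). Unloaded Notch2-mKO muscle had 1 higher and 2 lower (15% of those tested, against 7.31% of all genes; median -0.10, against 0.02): Slc25a5 fell by 0.73 (adjusted p = 0.00908) and Ampd1 by 0.65 (adjusted p = 0.0429), and Adssl1, which returns IMP towards AMP, rose by 0.44 (adjusted p = 0.0383). The last 2 calls were lost in 5 of 8 fits with 1 library left out. In unloaded WT muscle the calls of Hprt and Aprt were lost with the GC and length trend removed, where 26.6% of all genes were called.

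Of the 12 genes of AMP-activated protein kinase and its activators, 1 was lower and none higher in diabetic Notch2-mKO muscle (8.33% of those tested, against 5.59% of all genes; median 0.16, against -0.01). The regulatory subunit gene Prkag2 fell to 7.62 ± 1.47 CPM with diabetes, against 12.3 ± 0.981 CPM in Notch2-mKO controls (log2 fold change -0.69, adjusted p = 0.036, called in 2 of 8 fits with 1 library left out). Stk11 (0.24, adjusted p = 0.0532), Prkaa2 (0.39, adjusted p = 0.067) and Prkab2 (0.39, adjusted p = 0.138) did not pass. Among these genes 3 were higher and 3 lower in unloaded WT muscle (50% of those tested, against 34.7% of all genes; median 0.09, against -0.02). Prkab2 rose by 1.20 (adjusted p = 6.5e-06), and Prkaa2 (0.79, adjusted p = 5.08e-05) and Cab39 (0.67, adjusted p = 0.000372) were called before but not after removal of the GC and length trend (0.03 and 0.31). The call of Prkag1 was lost with that removal as well (-0.11, adjusted p = 0.319, edgeR), in a setting where 26.6% of all genes were called. Prkag2, called in unloaded WT muscle, was called there in 2 of 8 fits with 1 library left out. Of the same genes 2 were higher and none lower in unloaded Notch2-mKO muscle (16.7% of those tested, against 7.31% of all genes; median 0.10, against 0.02), Strada (0.70, adjusted p = 0.0106) and Prkab2 (0.51, adjusted p = 0.0458), neither of them called with that trend removed, and Prkag2 came next (-0.51, adjusted p = 0.0955).

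Among 16 genes of ATP-using and M-band proteins that sit with creatine kinase, 1 was lower and none higher in diabetic Notch2-mKO muscle (6.25% of those tested, against 5.59% of all genes; median -0.04, against -0.01). The fast myosin gene Myh1 fell to 2744 ± 304 CPM, against 4465 ± 372 CPM in Notch2-mKO controls (log2 fold change -0.70, adjusted p = 0.0206, called in 3 of 8 fits with 1 library left out), and Eno3 (-0.58, adjusted p = 0.136), Pfkm (-0.34, adjusted p = 0.203) and Pkm (-0.35, adjusted p = 0.281) did not pass. In unloaded WT muscle 1 was higher and 4 lower (31.2% of those tested, against 34.7% of all genes; median -0.18, against -0.02): Myh2, the type IIA myosin gene, fell by 1.64 (adjusted p = 5.05e-06), and Myom1, which encodes the M-band protein myomesin, rose by 0.54 (adjusted p = 0.00967). In unloaded Notch2-mKO muscle Myh2 alone was called, lower by 1.51 on the log2 scale in Notch2-mKO mice (adjusted p = 0.000376; 6.25% of those tested, against 7.31% of all genes; list median -0.18, against 0.02), with Atp1b1 (-0.39, adjusted p = 0.0629) and Myom3 (-0.69, adjusted p = 0.0973) next.

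Of 18 regulators of muscle and mitochondrial genes, edgeR called 0 in diabetic Notch2-mKO muscle, where 5 had an unadjusted p under 0.05 and DESeq2 called 1, Trp53 (median -0.03, against -0.01), with Trp53 (-0.49, adjusted p = 0.0668), Mef2a (0.37, adjusted p = 0.159), Esrra (-0.37, adjusted p = 0.171) and Myod1 (-0.52, adjusted p = 0.19) first by p. In unloaded WT muscle 4 were higher and 4 lower (44.4% of those tested, against 34.7% of all genes; median -0.05, against -0.02): Srf, the serum response factor gene, fell by 0.85 (adjusted p = 1.1e-05), Esrra, which encodes an oestrogen-related receptor of mitochondrial genes, fell by 0.80 (adjusted p = 0.000502), and Mef2a was higher by 0.79 (adjusted p = 0.000404; 0.14 and not called with the GC and length trend removed). In unloaded Notch2-mKO muscle 2 were lower (11.1% of those tested, against 7.31% of all genes; median -0.07, against 0.02), Ppara (-1.18, adjusted p = 0.00507) and Srf (-0.41, adjusted p = 0.0375, called in 3 of 8 fits with 1 library left out), and Esrrb came next (-0.55, adjusted p = 0.0676). On the authors' log2 values limma called 2 genes in all in unloaded Notch2-mKO muscle, so the list calls named there were lost with it. EdgeR called 0 genes of the 5 lists between the genotypes in any condition or for the difference in response to unloading, where it called 0 of all genes.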

How the data were processed

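Gene expression was measured by RNA sequencing of frozen gastrocnemius; groups and replicate numbers come from the sample titles. The authors deposited 4 tables with estimated counts per gene and log2 values relative to controls, per the file headers; the build is mm10, per the submitters' processing notes, with aligner and counter not given in the sources used here. The 8 control columns that appear in 2 tables were identical in both. Estimated counts were rounded and tested with edgeR 4.0.16 (R 4.3.3; quasi-likelihood F test, TMM factors, default filter, 1 coefficient for each of the 6 groups over 24 libraries, Benjamini-Hochberg over 13048 genes, calls under 0.05; common coefficient of variation 20%). The script was tested on simulated data. CPM used TMM-scaled totals, lengths and GC content came from GENCODE M21, and log2 CPM had a prior count of 2.

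The members, 5 gene lists and 9 marker lists were chosen with earlier results of these data known. Named genes were the members, the genes of closest pattern (5 for Gamt, 3 for each kinase; mean of at least 2 CPM), the neighbours of Gamt, Ckmt1, and the smallest p-values of each list (4 in diabetic Notch2-mKO muscle, 3 in the other tests); Fbxo32 was added after its values were seen. Some genes that this rule names are not reported here. Alternatives were DESeq2 1.42.0, limma 3.58.1 on the deposited log2 values, other scalings, removal of the trends of log2 level with GC content and length in every library (values for 98.93% of tested genes), no filter, own groups, a replicate block and each library left out. The labels do not say that replicates were separate animals, so the p-values may reflect technical spread alone. Intervals cover counting error and the fitted spread between libraries of a group, with the same limit, and floors cover counting error only. Whether counting used strand is not stated.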

Additional observations from a re-analysis of the deposited data

Results flagged for a closer look

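The 36 sets of 4 libraries (6 genes in 6 groups) were searched for a library far from the other 3 of its set, which chance gives in about 1 set in 20. In 4 sets a library stood apart. Slc6a8 was at 113.9 CPM in Notch2-mKO-Control replicate 4, with the other 3 between 97.3 and 100.1 CPM, and at 62.94 CPM in WT-Unloading replicate 2, with the others between 71.4 and 72.3 CPM. Ckmt2 was at 688.2 CPM in Notch2-mKO-Diabetes replicate 1, with the others between 552 and 569 CPM, and at 1185 CPM in WT-Control replicate 3, with the others between 915 and 947 CPM. No Gamt library stood apart by this measure.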

How the results depend on the processing

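Gamt kept its direction and its side of the threshold in each tested comparison the text reports, under every alternative run, leaving out a library included. Between diabetic and unloaded WT muscle, a comparison not reported above, its log2 fold change ran from -0.64 to 0.066 with 1 library left out, and that of Ckm from -0.058 to 0.081, none of them called. Its log2 fold change in diabetic Notch2-mKO muscle lay between -2.04 and -1.87 with all libraries (adjusted p 0.000391 to 0.0255) and between -2.19 and -1.80 with 1 left out (adjusted p 0.00779 to 0.0408), with the replicate block at -2.03 (adjusted p = 0.0154). The labels do not say whether replicate numbers pair the samples. Correlations of same-numbered deviations ran from -0.206 to 0.326. Differently numbered libraries were not compared, so these values do not settle it. The block gave 488 calls in diabetic Notch2-mKO muscle against 730.

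The 730 calls became 1592 with only the groups compared, 1142 with DESeq2, 1263 with limma and 470 with the replicate block and the GC and length trend removed; the 954 in unloaded Notch2-mKO muscle became 331, 1455 and 2 with the first 3 of these. Small values that changed sign, none of them called, were for Gatm with the trend removed -0.35 (WT unloading) and, between Notch2-mKO and WT, -0.054 in controls, 0.048 with unloading, 0.053 with diabetes, 0.10 and 0.11 for the responses to unloading and diabetes; with the replicate block and trend removal they were -0.36, -0.073, 0.030, 0.058, 0.10 and 0.13. On the authors' log2 values Gatm was at 0.094 (WT diabetes) and 0.12 (Notch2-mKO unloading) and Ckm at 0.059 and 0.040 (Notch2-mKO diabetes and unloading). Ckm was at 0.016 between diabetic and unloaded Notch2-mKO muscle with block and trend removal, and Ckb at 0.054 and 0.0073 between Notch2-mKO and WT controls with trend removal alone and with the block added.

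With 1 library left out, sign changes in the comparisons reported above stayed uncalled: Gatm -0.31 to 0.20 (Notch2-mKO unloading), -0.46 to 0.051 (Notch2-mKO diabetes over unloading), and, between Notch2-mKO and WT, -0.015 to 0.27 in controls, -0.33 to 0.17 with unloading, -0.16 to 0.091 with diabetes, -0.43 to 0.067 and -0.28 to 0.0039 for the responses to unloading and diabetes; Ckm -0.18 to 0.12 (Notch2-mKO unloading) and -0.17 to 0.11 (Notch2-mKO diabetes over unloading); Ckmt2 -0.13 to 0.034 and Ckb -0.40 to 0.16 (Notch2-mKO over WT controls); Ckb -0.0049 to 0.56 and Slc6a8 -0.14 to 0.042 (response to diabetes). The causes were not tested. Counts of 29 to 83.9 limit what can be seen of Gatm.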

Other observations

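Calls among cell type markers that the text above does not describe are given here. In unloaded WT muscle 1 of 6 Schwann cell, 1 of 6 adipocyte and 1 of 4 satellite cell markers were called higher and none lower. These are 16.7%, 16.7% and 25% of each list, where 18.4% of all genes were called higher and 16.3% lower, so the calls do not set these lists apart. The adipocyte call, Fabp4, was lost with the GC and length trend removed (-0.31, adjusted p = 0.127, edgeR). It was called in 2 of 8 fits with 1 library left out. Among smooth muscle and pericyte markers 5 of 6 were tested, of which 2 were called lower in diabetic Notch2-mKO muscle (2.54% of all genes) and 3 lower and 1 higher in unloaded WT muscle, and the defining marker Acta2 was near 0 in every group (median under 0.05 CPM). In unloaded Notch2-mKO muscle 2 of 6 endothelial, 4 of 6 fibroblast and tendon and 1 of 5 muscle fibre markers were called lower, against 3.2% of all genes. The 3 red cell markers in the tables summed to 186 to 860 CPM in diabetic, 268 to 940 CPM in unloaded and 198 to 407 CPM in control Notch2-mKO muscle, and edgeR and DESeq2 called 0 of the 3 in the treatment comparisons tested, with 0 in diabetic Notch2-mKO muscle, 2 in unloaded Notch2-mKO muscle and 1 in unloaded WT muscle at an unadjusted p under 0.05. These values are given without an explanation.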
